A study of Mus musculus with 8 samples.

Results

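The genes described here write, copy, read and remove DNA methylation. Of 10 genes listed by symbol (Dnmt1, Dnmt3a, Dnmt3b, Dnmt3l, Uhrf1, Tet1, Tet2, Tet3, Tdg and Mbd2), 9 had at least 1 probe whose transcript accession led to the symbol in a RefSeq gene table. They were covered by 18 of the 39378 probes analysed and were 9 of 20125 named genes. No probe led to Tet1, so that it was not analysed here. Expression was measured on 8 one-colour arrays of mouse Ebf1-deficient pro-B cell lines, in 4 groups of 2 arrays. These lines derive from fetal liver progenitors without EBF1, a transcription factor required for B-cell commitment. All 4 groups share this deficiency, which the sample titles name for the parental lines only. For the transductants it follows from the parent that the study gives. The Ebf1 probe read 1.34 and 1.3 on the pro-B(+) arrays, 1.5 and 1.53 on the pro-B(−) arrays, 1.5 and 1.48 with the empty vector and 1.11 and 1.13 with Lmo2, well above background throughout, and the place of the probe relative to the disrupted part of the gene was not known here, so it does not check the deficiency. Pro-B(+) cells were established on OP9 stromal cells and keep the potential to become T cells when Notch is stimulated, whereas pro-B(−) cells were established on the thymic stromal line TD7 and lack it. Pro-B(−) cells carrying an empty vector (pro-B(−)/Mock) or an Lmo2 vector (pro-B(−)/LMO2) form the other groups, called Mock and LMO2 cells below. The study gives the parent of both transductants as pro-B(−) cells, which the sample labels do not state. Each parental group is 1 line. A figure legend of the study calls the arrays of the parental lines independent biological replicates, while the transductants carry no such description in the text or labels read here, so that their p-values measure only the spread between these arrays, which may be technical.

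Methylated cytosine in CpG dinucleotides is set on unmethylated DNA by DNMT3A and DNMT3B, which DNMT3L assists. At replication UHRF1 recognises hemimethylated DNA and brings DNMT1 to it, so that the pattern passes to daughter cells. TET enzymes oxidise methylcytosine, and TDG excises the oxidised bases for replacement by base excision repair, while MBD2 binds methylated CpG and recruits the NuRD repressor complex. In blood progenitors these enzymes are known to restrain or allow lineage choice, and the study examined methylation at the start sites of Tcf7, the gene of the early T-lineage factor TCF1, in some of these lines. The arrays measure transcripts and say nothing of methylation itself.

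On each array 56.5% to 61.2% of probes stood well above background, and the 75th percentile of the processed intensity, to which each array was scaled, ranged from 607 to 952. Values below are log2 signals relative to that percentile, so that 0 is the array's upper quartile, and they are compared only within a probe. Replicate arrays correlated at r = 0.9988 to 0.9991 over 20376 probes detected above background throughout. The parental lines lay on 1 slide and the transductants on another, so within each slide the compared groups share it, while across slides group and slide cannot be told apart. At this spread limma called 51.9% of 13218 named genes between the parental lines and 68.3% of 12924 between the transductants. In bulk RNA fewer cells of a type and less RNA per cell cannot be told apart.

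As a reference, Lmo2, which encodes the adaptor protein delivered by the vector, read 2.08 and 2.10 on the pro-B(+) arrays, 0.62 and 0.63 on the pro-B(−) arrays, 0.35 on both arrays with the empty vector and 0.99 and 0.92 with Lmo2. Pro-B(+) cells exceeded pro-B(−) cells 2.76-fold (limma adjusted p = 2.8e-06), and LMO2 cells exceeded Mock cells 1.52-fold (adjusted p = 5.8e-05). Whether the Lmo2 probe lies in the part carried by the vector was not known here, so the 1.52-fold may not measure the delivered transcript. Tcf7 read −2.90 and −2.89 on the pro-B(+) arrays and 1.79 and 1.78 with Lmo2, and none of the pro-B(−) or Mock arrays had it well above background. Its level exceeded these by at least 7.55-fold in pro-B(+) and at least 237-fold in LMO2 cells, against the lowest signal among probes well above background on each dim array. Tcf7 passed the filter through the groups in which it was high, so that no test is given. The Tcf7 window below is shown because its CpG sites are the kind of substrate on which the enzymes act, and the Dnmt3b and Tet2 windows because these genes differed most between the parental lines. Each is the strand of the gene from 250 bases before to 50 bases after an annotated start (RefSeq, GRCm38.p6), with CpG dinucleotides in capitals: Tcf7 at chr11:52282965-52283264 (minus strand), Dnmt3b at chr2:153649199-153649498 (plus strand) and Tet2 at chr3:133544341-133544640 (minus strand).
Tcf7: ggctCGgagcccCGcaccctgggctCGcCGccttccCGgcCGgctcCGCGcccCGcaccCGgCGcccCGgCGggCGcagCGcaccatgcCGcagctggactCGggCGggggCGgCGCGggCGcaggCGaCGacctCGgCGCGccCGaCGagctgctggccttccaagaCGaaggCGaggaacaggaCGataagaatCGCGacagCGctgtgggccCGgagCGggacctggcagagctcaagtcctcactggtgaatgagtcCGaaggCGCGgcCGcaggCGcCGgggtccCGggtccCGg
Dnmt3b: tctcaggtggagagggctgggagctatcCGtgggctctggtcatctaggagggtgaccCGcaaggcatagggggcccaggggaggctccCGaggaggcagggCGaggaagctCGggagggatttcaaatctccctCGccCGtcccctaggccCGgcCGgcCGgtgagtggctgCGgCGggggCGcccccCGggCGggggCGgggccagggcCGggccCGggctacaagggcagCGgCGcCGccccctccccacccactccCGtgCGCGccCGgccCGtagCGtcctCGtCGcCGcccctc
Tet2: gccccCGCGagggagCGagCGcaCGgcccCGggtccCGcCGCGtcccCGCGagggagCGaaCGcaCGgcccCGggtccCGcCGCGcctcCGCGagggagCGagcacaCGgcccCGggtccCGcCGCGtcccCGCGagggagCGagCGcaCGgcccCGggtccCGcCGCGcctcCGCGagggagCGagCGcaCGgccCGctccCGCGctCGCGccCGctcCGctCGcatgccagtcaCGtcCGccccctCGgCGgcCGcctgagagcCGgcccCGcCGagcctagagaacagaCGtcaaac
They hold 45, 30 and 57 CpG dinucleotides. The median of 32851 such windows is 7, and 1.9%, 11.7% and 0.2% of all windows hold at least as many as those of Tcf7, Dnmt3b and Tet2. A further Tcf7 window, at the other annotated start, held 17. The printed Tcf7 window is not the stretch whose methylation the study sequenced. After conversion, the study's forward primer matches near the window's downstream end, so most of the window's CpG sites lie outside that stretch.

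**Figure D1:**
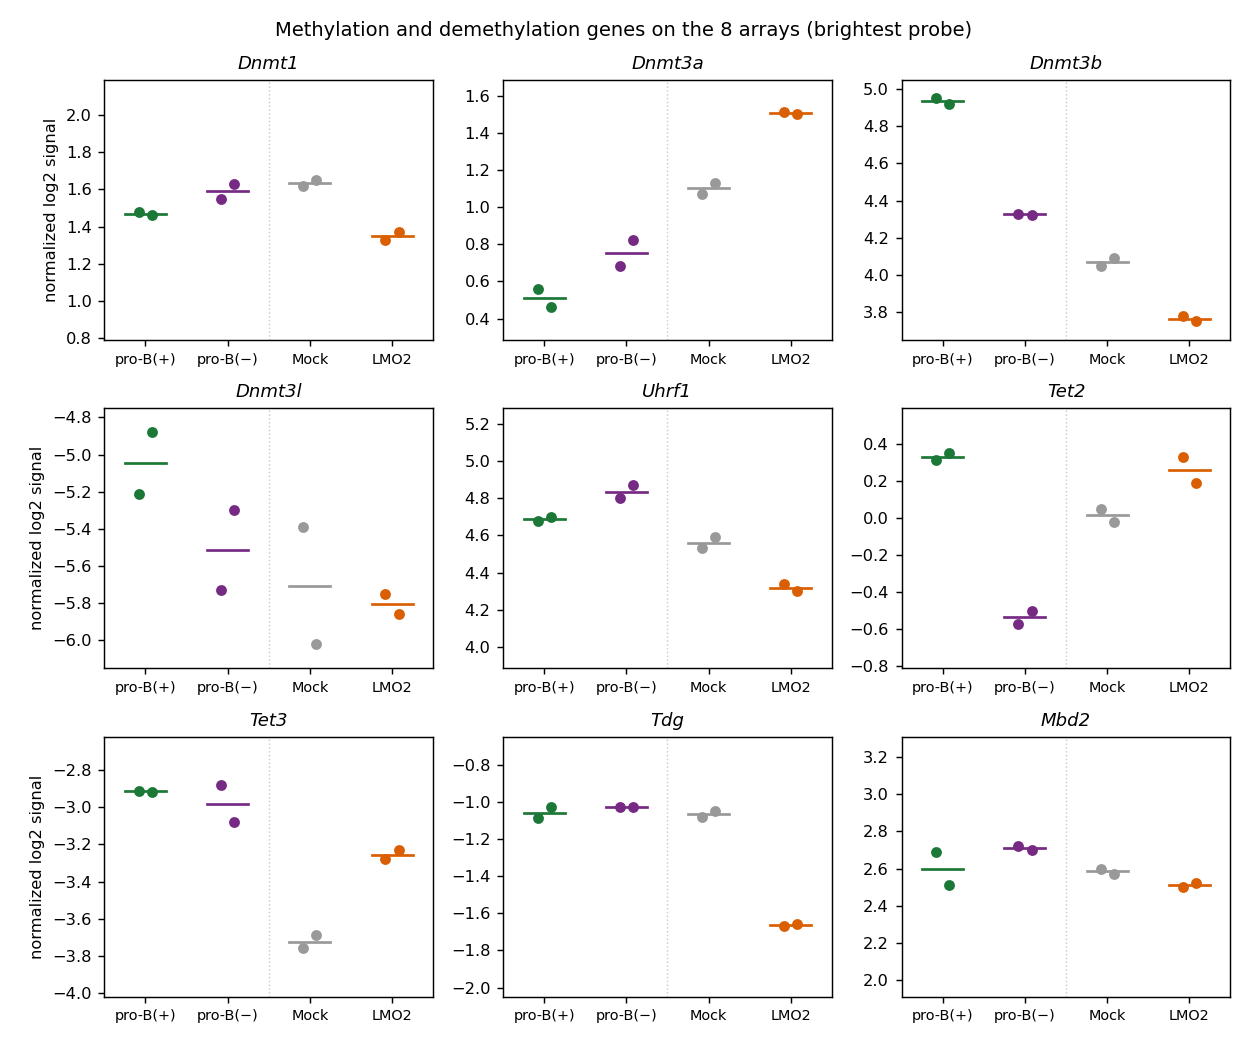
Normalized log2 signal (vertical axis, own scale in each panel, spanning at least 1.4) of the brightest probe of each of the 9 genes in the 4 groups (horizontal axis). Each point is 1 array, each short line a group mean of 2 arrays, and the dotted line separates the 2 slides. Dnmt3b steps down from 4.93 to 3.76 in the order in which Dnmt3a steps up from 0.51 to 1.51, Tet2 is lowest in pro-B(−) cells, and Tdg is low in LMO2 cells alone.

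The first comparison asks how the line that can become T cells differs from the one that cannot. Of the 9 genes, Tet2 and Dnmt3b were called higher in pro-B(+) cells and Dnmt3a and Uhrf1 lower, which is 4 of 9 against 51.9% of all named genes, and 2 in each direction against 25.5% higher and 26.4% lower. The share is near the background, and no change reached 2-fold. The median change of the 9 genes was −0.03 on the log2 scale, beside −0.01 over all named genes. Dnmt1, Dnmt3l, Tet3, Tdg and Mbd2 did not pass the test. The balance of directions depended on the scaling: over all probes 42.7% of calls were higher, but 15.8% when arrays were scaled to their median, which moved the median change by −0.29 (log2). Under that scaling 2 of the 9 genes were called higher, again Tet2 and Dnmt3b, and 6 lower, Dnmt1, Dnmt3a, Uhrf1, Tet3, Tdg and Mbd2. Over all 23467 probes tested it called 2932 higher and 15580 lower, so that 6 of 9 lower is near its background. Without pro-B(+) replicate 2 or without pro-B(−) replicate 2 the calls were 2 in place of 4, those of Tet2 and Dnmt3b.

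The second comparison asks what the Lmo2 vector changed within the transductants. Here 7 of the 9 genes were called by their brightest probes, against 68.3% of all named genes: Dnmt3a, Tet3 and Tet2 were called higher, beside 30.5% of named genes, although the other Tet3 probes were not called, and Tdg, Dnmt3b, Dnmt1 and Uhrf1 fell, beside 37.8%. Again none of these changes reached 2-fold, and the median over the 9 was −0.10, beside −0.04 over all named genes. With median scaling 24.5% of the calls over all probes were higher in place of 43.2%, at a shift of −0.20, and 2 of the 9 genes were called higher and 5 lower. Of 22995 probes tested, that scaling called 3999 higher and 12331 lower. Tet2 was called higher and Uhrf1 lower in both comparisons, whereas Dnmt3a and Dnmt3b each changed direction between them.

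**Figure D2:**
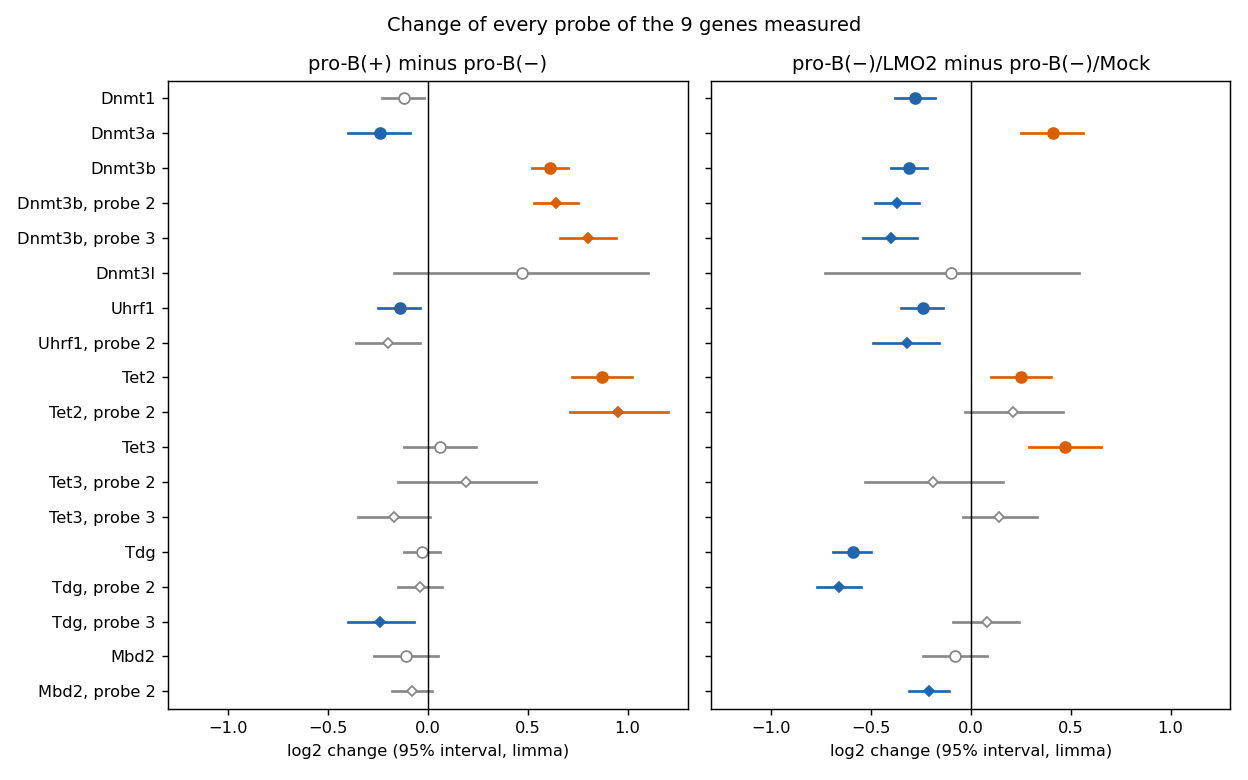
Log2 change (horizontal axis) with its 95% interval from limma for each of the 18 probes (vertical axis), between the parental lines on the left and between the transductants on the right. Circles are the brightest probe of a gene and diamonds its other probes, orange marks a call of higher, blue a call of lower, and open grey symbols no call. The 3 Dnmt3b probes lie at 0.61 to 0.80 on the left and at −0.40 to −0.31 on the right, and the probes of Tet3 scatter around 0 on the left.

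Dnmt3b, a de novo methyltransferase, had the widest range of group means among the 9 genes, 1.17 on the log2 scale. Its brightest probe read 4.95 and 4.92 on the pro-B(+) arrays, 4.33 and 4.32 on the pro-B(−) arrays, 4.05 and 4.09 with the empty vector and 3.78 and 3.75 with Lmo2. No 2 groups overlapped, and each step down passed limma's test. Dnmt3b stood 1.52-fold above pro-B(−) in pro-B(+) cells (log2 0.61, SE 0.036, adjusted p = 7.7e-05) and 1.24-fold lower with the Lmo2 vector (log2 −0.31, SE 0.036, adjusted p = 0.00079). Median scaling lowered the parental change to 0.32 (adjusted p = 0.0013), and the Lmo2 effect lay between −0.51 with that scaling and −0.13 with quantile normalization (adjusted p = 0.012), with both calls kept in all 17 alternatives. The step from pro-B(−) to Mock cells, across slides, was −0.26 (adjusted p = 0.0022). The parental difference and the Lmo2 effect thus ran in opposite directions, and their difference of 0.91 was called (95% interval 0.79 to 1.04, adjusted p = 8.8e-05). All 3 probes, which name the same transcript, were called higher in pro-B(+) and lower in LMO2 cells. The third did not follow between pro-B(−) and Mock cells, at −0.03 (adjusted p = 0.67).

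Dnmt3a, the other de novo methyltransferase, ran in the reverse order with a range of 1.0. It had 1 probe, which read 0.56 and 0.46 on the pro-B(+) arrays, 0.68 and 0.82 on the pro-B(−) arrays, 1.07 and 1.13 with the empty vector and 1.51 and 1.5 with Lmo2. The groups did not overlap. Dnmt3a was 1.18-fold lower in pro-B(+) cells than in their pro-B(−) counterparts (log2 −0.24, SE 0.062, limma adjusted p = 0.023). This call was lost without pro-B(+) replicate 2 (−0.19, adjusted p = 0.11), without pro-B(−) replicate 2 (−0.17, adjusted p = 0.091), with no filter on dim probes (adjusted p = 0.067) and with only the arrays compared (adjusted p = 0.066), within a range of 0.0011 to 0.11 over 17 alternatives. With the vector it rose 1.33-fold (log2 0.41, SE 0.062, adjusted p = 0.0023), or by 0.20 with median scaling (adjusted p = 0.047), and the step from pro-B(−) to Mock cells was 0.35 (adjusted p = 0.0055). The difference between the parental and the Lmo2 effect was −0.65 (adjusted p = 0.0020). Dnmt3a and Dnmt3b therefore moved oppositely in both within-slide comparisons.

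Dnmt3l, the catalytically inactive partner of both enzymes, was dim. It read −5.21 and −4.88 on the pro-B(+) arrays, −5.73 and −5.30 on the pro-B(−) arrays, −5.39 and −6.02 with the empty vector and −5.75 and −5.86 with Lmo2, and was well above background on 7 of 8 arrays. The arrays of Mock cells spanned the range of LMO2 cells. The parental difference was 0.47 with a 95% interval of −0.17 to 1.1 (limma adjusted p = 0.18), and the Lmo2 effect −0.10 with an interval of −0.73 to 0.54 (adjusted p = 0.76).

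Among the genes of maintenance methylation, Dnmt1, the enzyme that copies the pattern, varied least after Mbd2, with a range of 0.28. It read 1.48 and 1.46 on the pro-B(+) arrays, 1.55 and 1.63 on the pro-B(−) arrays, 1.62 and 1.65 with the empty vector and 1.33 and 1.37 with Lmo2. The LMO2 arrays lay below all others. Dnmt1 was 1.22-fold lower with the Lmo2 vector (log2 −0.28, SE 0.041, limma adjusted p = 0.0018), a call kept in all 17 alternatives. Between the parental lines the change was −0.12, with an interval of −0.23 to −0.02 and an adjusted p of 0.052, which ranged from 0.00064 to 0.22 over the alternatives. The 2 effects differed by 0.16 (adjusted p = 0.063).

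Uhrf1, the reader that brings DNMT1 to hemimethylated DNA, read 4.68 and 4.70 on the pro-B(+) arrays, 4.80 and 4.87 on the pro-B(−) arrays, 4.53 and 4.59 with the empty vector and 4.34 and 4.30 with Lmo2. The groups did not overlap, but their range was only 0.51. The vector lowered it by 1.18-fold (log2 −0.24, SE 0.042, limma adjusted p = 0.0038), although with quantile normalization the change was −0.04 (adjusted p = 0.41) and with normexp correction 0.00 (adjusted p = 0.97), the range over 17 alternatives being 0.00023 to 0.97. Between the parental lines the change was −0.14 (adjusted p = 0.038), and leaving out any of the 8 arrays removed that call, within a range of 0.00033 to 0.27 over the alternatives. A dimmer probe, which names another transcript of the gene, gave −0.32 with the vector (adjusted p = 0.0072) and −0.20 between the parental lines (adjusted p = 0.052). From pro-B(−) to Mock cells this probe fell by 0.87 (adjusted p = 0.00026), against 0.27 for the brighter one (adjusted p = 0.0033).

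The start-site windows of Dnmt1 and Uhrf1 are shown with matches to a motif of E2F, the transcription factor family of S-phase entry. Any part of E2F in the changes of these genes was not tested. The motif searched on both strands was TTTCCCGC, TTTCGCGC, TTTGCCGC or TTTGGCGC, with matches in capitals, in windows of the same build and length at chr9:20952574-20952873 (Dnmt1, minus strand) and chr17:56304063-56304362 (Uhrf1, plus strand).
Dnmt1: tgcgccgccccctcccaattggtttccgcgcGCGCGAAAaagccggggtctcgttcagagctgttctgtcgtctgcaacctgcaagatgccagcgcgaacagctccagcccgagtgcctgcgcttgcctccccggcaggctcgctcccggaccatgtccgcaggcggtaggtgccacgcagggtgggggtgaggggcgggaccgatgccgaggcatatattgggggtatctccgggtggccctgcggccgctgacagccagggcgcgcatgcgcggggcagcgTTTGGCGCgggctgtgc
Uhrf1: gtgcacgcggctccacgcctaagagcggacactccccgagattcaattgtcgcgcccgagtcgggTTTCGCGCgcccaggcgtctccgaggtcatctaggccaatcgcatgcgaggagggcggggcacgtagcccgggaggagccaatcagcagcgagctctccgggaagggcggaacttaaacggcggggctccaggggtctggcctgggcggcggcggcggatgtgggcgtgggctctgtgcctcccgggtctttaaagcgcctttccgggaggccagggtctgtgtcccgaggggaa
Dnmt1 had a match on the opposite strand that began 219 bases upstream of the start and another on its own strand 33 bases downstream, and Uhrf1 had 1 match 185 bases upstream. The matches do not overlap each other, and Dnmt1 has 3 annotated starts and Uhrf1 2, of which the windows shown are the ones that hold a match. Of all 32851 windows, 2.26% held the motif. By gene these were 2.6% of 27025 genes, 2 of the 9 listed methylation genes with a window, Tet1 included (Dnmt1 and Uhrf1), 2 of 6 maintenance partners (Hells and Cdca7) and 5 of 12 cell division genes (Mcm3, Mcm5, Mcm6, Mcm7 and Cdk1). Mbd2 has no entry. A match describes letters and not a bound site.

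Of the demethylation genes, Tet2, which oxidises methylcytosine and restrains myeloid expansion of blood progenitors, differed most between the parental lines. It read 0.31 and 0.35 on the pro-B(+) arrays, −0.57 and −0.50 on the pro-B(−) arrays, 0.05 and −0.02 with the empty vector and 0.33 and 0.19 with Lmo2. Pro-B(−) cells lay below every other group, whereas pro-B(+) and LMO2 cells overlapped, with a difference of 0.07 (limma adjusted p = 0.30) in a comparison in which 77.8% of named genes were called. Pro-B(+) cells had 1.82-fold more Tet2 (log2 0.87, SE 0.060, adjusted p = 0.00015). The second probe of the same transcript gave 0.95 (adjusted p = 0.00075), and the call was kept in all 17 alternatives. With the Lmo2 vector it rose by 0.25 (1.19-fold, SE 0.060, adjusted p = 0.014), but this call was lost with median scaling (0.04, adjusted p = 0.52), without Mock replicate 2 (0.21, adjusted p = 0.076) and without LMO2 replicate 1 (0.18, adjusted p = 0.061), the range over 17 alternatives being 0.0013 to 0.52. Its second probe gave 0.21 (adjusted p = 0.11). The Lmo2 effect was smaller than the parental difference by 0.62 (adjusted p = 0.0021). The step from pro-B(−) to Mock cells, at 0.54 (adjusted p = 0.00099), crossed slides, and 59.7% of named genes were called in that comparison.

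Tet3, another TET oxygenase, read −2.91 and −2.92 on the pro-B(+) arrays, −2.88 and −3.08 on the pro-B(−) arrays, −3.76 and −3.69 with the empty vector and −3.28 and −3.23 with Lmo2. The parental arrays overlapped. The brightest probe gave a rise of 0.47 with the vector (SE 0.072, limma adjusted p = 0.0023), although with normexp correction it gave 0.09 (adjusted p = 0.12, the range over 17 alternatives being 0.00091 to 0.12), and the other probes gave −0.19 (adjusted p = 0.28) and 0.14 (adjusted p = 0.14). All 3 name the same transcript, and between the parental lines their changes of 0.06, 0.19 and −0.17 did not pass. A direction for the gene can therefore not be given from these probes.

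Tdg, the glycosylase that removes oxidised methylcytosine, changed in 1 of the within-slide comparisons. It read −1.09 and −1.03 on the pro-B(+) arrays, −1.03 on both pro-B(−) arrays, −1.08 and −1.05 with the empty vector and −1.67 and −1.66 with Lmo2. The pro-B(+) arrays spanned those of pro-B(−) and Mock cells, and the LMO2 arrays stood below them all. Tdg was 1.51-fold lower with the Lmo2 vector (log2 −0.59, SE 0.037, limma adjusted p = 7.6e-05), in all 17 alternatives, whereas the parental change was −0.03 with an interval of −0.12 to 0.06 (adjusted p = 0.54). The 2 effects differed by 0.56 (adjusted p = 5e-04). The second probe gave −0.66 with the vector (adjusted p = 9.8e-05), while the dimmest probe of the same transcript gave 0.08 (adjusted p = 0.36) and, between the parental lines, −0.24 (adjusted p = 0.031).

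Mbd2, the methyl-CpG reader, had the narrowest range, 0.20. It read 2.69 and 2.51 on the pro-B(+) arrays, 2.72 and 2.70 on the pro-B(−) arrays, 2.60 and 2.57 with the empty vector and 2.50 and 2.52 with Lmo2. The pro-B(+) arrays spanned those of Mock cells and overlapped those of LMO2 cells. The parental change was −0.11 with an interval of −0.27 to 0.05 (limma adjusted p = 0.21), and the Lmo2 effect −0.08 with an interval of −0.24 to 0.08 (adjusted p = 0.34). The second probe fell by 0.21 with the vector (adjusted p = 0.0062).

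Across slides, 5 of the 9 genes were called in Mock relative to pro-B(−) cells (59.7% of named genes), of which Dnmt3a and Tet2 were higher and Dnmt3b, Uhrf1 and Tet3 lower. In LMO2 relative to pro-B(−) cells 8 were called (77.2% of named genes), relative to pro-B(+) cells 7 (77.8%), and in Mock relative to pro-B(+) cells 6 (70.3%). The difference between the parental and the Lmo2 effect was called for 5 of the 9 genes, Dnmt3a, Dnmt3b, Tet2, Tet3 and Tdg, beside 58.6% of named genes. In the order of group means, neighbours that did not pass the test were Mock and pro-B(−), and pro-B(−) and pro-B(+), for Dnmt1 (although Mock exceeded pro-B(+) by 0.16, adjusted p = 0.014), pro-B(−) and pro-B(+), and pro-B(+) and Mock, for Tdg, both parental lines for Tet3, pro-B(+) and LMO2 for Tet2, and every step for Dnmt3l and Mbd2. The outermost groups did differ for both, across slides. LMO2 cells were below pro-B(+) cells for Dnmt3l (−0.76, limma adjusted p = 0.037) and below pro-B(−) cells for Mbd2 (−0.20, adjusted p = 0.033).

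The genes whose pattern was most like the 2 widest-ranging members were found by Pearson's r over the 8 arrays, as a description in which group means carry most of the likeness. For Dnmt3b these were Tpm2 (r = 0.999), Prps1 (r = 0.997) and Pxylp1 (r = 0.996) of 2696 genes. Tpm2, a tropomyosin, stepped down through 2.52, 1.58, 1.21 and 0.81 from pro-B(+) through pro-B(−) and Mock to LMO2 cells. For Dnmt3a they were Zbtb20 (r = 0.995), Mov10 (r = 0.994) and Mical1 (r = 0.993) of 2697 genes, and Mov10, an RNA helicase, stepped up through 1.08, 1.41, 1.78 and 2.25.

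Partners of maintenance methylation fell with the Lmo2 vector in 5 of 6 genes tested, beside 37.8% of named genes lower, with a median of −0.56 beside −0.04 over all named genes. Uhrf2, a relative of Uhrf1, read 2.05 and 2.17 on the pro-B(+) arrays, 1.18 and 1.21 on the pro-B(−) arrays, −0.36 and −0.26 with the empty vector and −2.26 and −2.12 with Lmo2. No groups overlapped. It was 1.89-fold higher in pro-B(+) cells than in their pro-B(−) counterparts (log2 0.92, limma adjusted p = 0.00024) and 3.69-fold lower with the vector (log2 −1.88, adjusted p = 1.5e-05), the same 2 directions as Dnmt3b. Cdca7, which recruits the remodeller HELLS, fell by 0.74 with the vector (adjusted p = 0.00025) and Pcna, the replication clamp, by 0.58 (adjusted p = 0.00025). Between the parental lines Hells was lower by 0.27 (1.21-fold, adjusted p = 0.0096) and Cdca7 by 0.24 (1.18-fold, adjusted p = 0.026) in pro-B(+) cells, with 3 of 6 partners called beside 51.9% of named genes. These 1 higher and 2 lower became 1 and 1 with quantile normalization and 2 and 2 with normexp correction. With median scaling they became 1 higher and 4 lower, where 15580 of all 23467 probes were lower.

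Genes of dividing cells fell alongside Dnmt1, Uhrf1 and their partners. All 14 genes of the cell division list fell with the vector, with a median of −0.49, and did so with each scaling tried. Over all named genes 37.8% were lower and 68.3% called, with a median of −0.04. The largest were Rrm1, a subunit of ribonucleotide reductase (−0.85, limma adjusted p = 7.5e-05), Ccna2, a cyclin (−0.81, adjusted p = 1.8e-05), and Cdk1, the mitotic kinase (−0.78, adjusted p = 0.00013). Their summed linear level, relative to the 75th percentile, was 350 to 356 in Mock and 254 to 260 in LMO2 cells, beside 359 to 361 in pro-B(+) and 368 to 374 in pro-B(−) cells. Of these 14 genes, 3 were called in the parental comparison, all lower: Tyms (−0.61, adjusted p = 0.0029), Cdk1 (−0.20, adjusted p = 0.031) and Mcm3 (−0.18, adjusted p = 0.013). Of named genes 26.4% were lower there and 51.9% called. The parental direction of this list turned with the scaling, since all 14 were called lower with median scaling (median −0.34) but 3 higher and 2 lower with quantile normalization (median 0.04). Median scaling called 15580 of all 23467 probes lower there. The part of cell division in the changes of Dnmt1, Uhrf1 and Tdg was not tested.

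**Figure D3:**
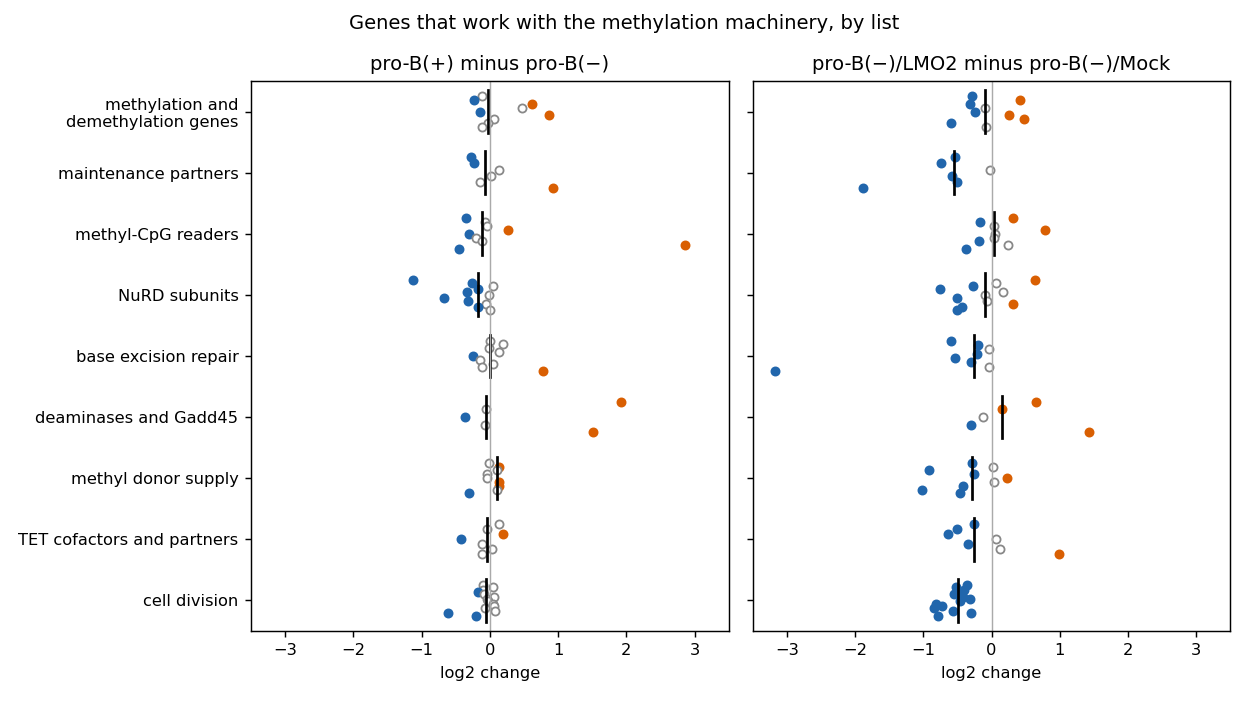
Log2 change (horizontal axis) of each gene tested, by list (vertical axis), between the parental lines on the left and the transductants on the right. Filled orange points were called higher, filled blue points lower and open points not called, and the black bar is the median of the list. With the vector all 14 cell division genes lie below 0, with a median of −0.49, and the point at −3.17 is Neil3, which was not well above background with the vector and was at least 2.43-fold lower.

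Repair of the excised base moved likewise with the vector: 6 of 8 base excision repair genes fell, with a median of −0.26, and none was called higher, beside 37.8% of named genes lower and 68.3% called. The 6 include Neil3, which passed the filter through Mock cells, where it was high, so that its call is no support. The others included Apex1, the abasic-site endonuclease (−0.60, limma adjusted p = 8.2e-05), Parp1, a sensor of strand breaks (−0.54, adjusted p = 0.00012), and Smug1, a uracil glycosylase (−0.30, adjusted p = 0.0091). Between the parental lines 2 of 9 were called, beside 51.9% of named genes, Neil3, a glycosylase for oxidised bases (0.78, adjusted p = 0.0081), and Parp1 (−0.25, adjusted p = 0.0035). Of the deaminase and Gadd45 genes, Gadd45g, a stress-response gene, was 2.85-fold higher in pro-B(+) cells than in their pro-B(−) counterparts (log2 1.51, adjusted p = 5.2e-06) and rose 2.70-fold with the vector (log2 1.43, adjusted p = 6.5e-06). It read 0.76 and 0.82 on the pro-B(+) arrays, −0.74 and −0.70 on the pro-B(−) arrays, 0.32 and 0.28 with the empty vector and 1.77 and 1.70 with Lmo2, with no overlap. Apobec1, a cytidine deaminase, was raised 3.79-fold in pro-B(+) cells (adjusted p = 1.3e-06) and 1.57-fold with the vector (adjusted p = 4.7e-05). Gadd45a was lower in pro-B(+) cells by 0.36 (adjusted p = 0.0052) and Gadd45b fell by 0.30 with the vector (adjusted p = 0.0026). In all, 3 of 5 genes of this list were called in the first comparison and 4 of 5 in the second, near the 51.9% and 68.3% of named genes. With median scaling the median of this list with the vector was −0.04 in place of 0.16, and the parental median of the repair genes −0.28 in place of 0.00.

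Among the genes that supply methyl groups, 6 of 9 fell with the vector and 1 rose, with a median of −0.28. The 7 called are near the 68.3% of named genes, of which 37.8% were lower. Shmt1 and Shmt2, which feed the folate cycle, fell by 1.02 (limma adjusted p = 0.0036) and 0.46 (adjusted p = 0.00014), and Ahcy, which clears the product that inhibits methyltransferases, fell by 0.92 (adjusted p = 6.4e-05). In the parental comparison Shmt2 was lower by 0.31 in pro-B(+) cells (adjusted p = 0.00091), and Mat2b (0.14, adjusted p = 0.032) and Mthfd1 (0.13, adjusted p = 0.037) were among 3 genes called higher. In all 4 of 9 were called there, beside 51.9% of named genes called and 25.5% higher. The TET cofactors and partners had 4 of 7 genes lower and 1 higher with the vector, again near the 68.3% called. Idh3a and Idh2, enzymes that produce the TET co-substrate, fell by 0.64 (adjusted p = 0.00012) and 0.51 (adjusted p = 0.00019), while Cxxc5, a CpG-binding protein that can engage TET2, rose by 0.99 (adjusted p = 3.8e-05). In the parental comparison D2hgdh was lower by 0.42 (adjusted p = 0.0055) and Idh3a higher by 0.19 (adjusted p = 0.020) in pro-B(+) cells, 2 of 7 tested beside 51.9% of named genes. With median scaling none of the 9 methyl donor genes was called higher and 8 were lower between the parental lines, and the TET cofactors had 0 higher and 5 lower. Over all probes 15580 of 23467 were called lower with that scaling.

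The NuRD repressor complex, which MBD2 and MBD3 recruit, had 7 of 11 subunits lower and none higher in pro-B(+) cells than in their pro-B(−) counterparts, with a median of −0.18, beside 26.4% of named genes lower. Chd3, a remodelling helicase, read 2.03 and 2.10 on the pro-B(+) arrays, 3.25 and 3.13 on the pro-B(−) arrays, 3.64 and 3.62 with the empty vector and 4.29 and 4.25 with Lmo2. The groups did not overlap and followed the order of Dnmt3a. It was 2.18-fold lower in pro-B(+) cells (log2 −1.12, limma adjusted p = 3.3e-05), and the vector raised it 1.56-fold (log2 0.64, adjusted p = 0.00021). Mta3 (−0.67, adjusted p = 0.00013) and Mta1 (−0.34, adjusted p = 0.0091) were also lower in pro-B(+) cells. With the vector 5 of 11 subunits fell and 2 rose, near the 68.3% of named genes called, among them the histone deacetylase Hdac2 (−0.75, adjusted p = 6.8e-05) and the histone chaperone Rbbp7 (−0.51, adjusted p = 0.00058). The median of the subunits with the vector was −0.09, but 0.08 with quantile normalization and 0.05 with normexp correction, and between the parental lines both of these called 6 subunits lower and 1 higher.

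Of 9 other genes from the families of methyl-CpG readers, 5 were called in each of the comparisons, with 2 higher and 3 lower, beside 51.9% and 68.3% of named genes. The list goes by family, and not each member, such as Mbd3, Mbd5 or Mbd6, is itself a selective reader of methylated CpG. Of the 9 genes Zbtb4, a zinc-finger reader, was 7.27-fold higher in pro-B(+) cells than in their pro-B(−) counterparts (log2 2.86, SE 0.24, limma adjusted p = 0.00032), from −5.65 and −5.49 to −2.69 and −2.72. On the pro-B(−) arrays the lowest signal among probes well above background averaged −5.81, so Zbtb4 was near the floor there and its fold is imprecise. In Mock cells it read −4.24 and −4.98 and in LMO2 cells −4.48 and −4.26, and the transductants overlapped. Zbtb38 was lower in pro-B(+) cells (−0.45, adjusted p = 0.011) and fell with the vector (−0.37, adjusted p = 0.014). Mbd1 was lower in pro-B(+) cells (−0.35, adjusted p = 0.0020) and rose with the vector (0.32, adjusted p = 0.0018), and Mbd5 rose with it by 0.78 (adjusted p = 8.1e-05). With median scaling 1 gene of this list was called higher and 7 lower between the parental lines, and 1 higher and 5 lower with the vector, while quantile normalization gave 3 higher and 2 lower with the vector. Over all probes median scaling called 15580 of 23467 lower between the parental lines and 12331 of 22995 lower with the vector.

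Germline genes, which promoter methylation is known to keep silent in body cells, were largely undetected: of 12 genes, 8 to 10 were not above background on either array of a group. Ddx4, a germ-cell RNA helicase, was above background in all 4 groups and changed most. It read −2.72 and −2.75 on the pro-B(+) arrays, 0.93 and 0.87 on the pro-B(−) arrays, −0.03 and 0.07 with the empty vector and −2.88 and −3.23 with Lmo2. Pro-B(−) and Mock cells were high and the others low, with no overlap. Ddx4 was 12.4-fold lower in pro-B(+) cells than in their pro-B(−) counterparts (log2 −3.63, SE 0.11, limma adjusted p = 7.1e-06) and 8.42-fold lower with the vector (log2 −3.07, SE 0.11, adjusted p = 1.4e-05), and the difference between these effects was −0.56 (adjusted p = 0.032). Taf7l, a testis form of a general transcription factor, was lower in pro-B(+) cells by 0.42 (adjusted p = 0.031). Sycp1 and Mael, named after their values were seen, were above background among the parental lines in pro-B(−) cells only, at means of −4.48 and −5.24, and passed the filter through that group, so that their difference is given with no test.

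**Figure D4:**
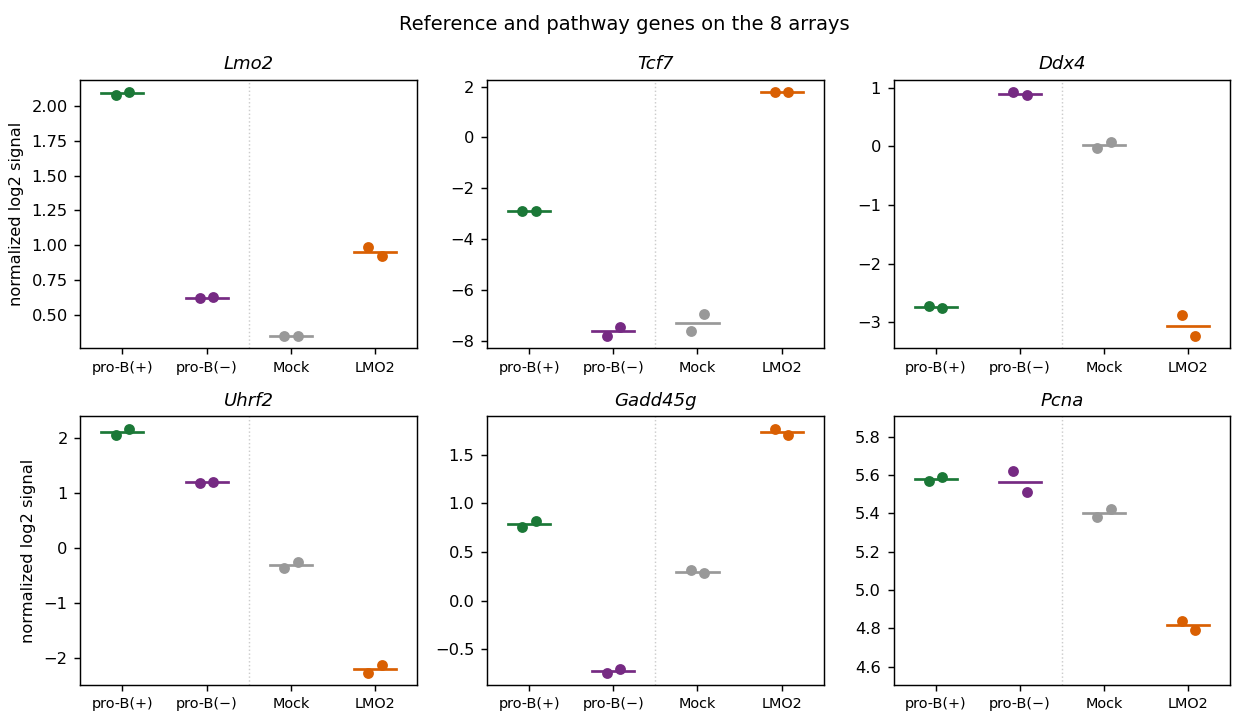
Normalized log2 signal (vertical axis, own scale in each panel) of 6 genes in the 4 groups (horizontal axis), with 1 point per array, a short line at each group mean and a dotted line between the 2 slides. Ddx4 is high in pro-B(−) and Mock cells, where no array had Tcf7 well above background, Uhrf2 steps down from 2.11 to −2.19, and Pcna is lowest, at 4.82, in LMO2 cells.

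Markers of other cells moved with the groups, and in each list 1 gene carried much of the summed level, for the pro-B list in LMO2 cells only. The sum of 13 myeloid markers was 126 to 127 in pro-B(+) cells and 73.2 to 85.2 in the other groups. Without Csf3r, a granulocyte receptor that is bright in all groups, it was 60.1 to 61.2 in pro-B(+), 6.63 to 7.25 in pro-B(−), 7.61 to 7.98 in Mock and 22.4 to 23.8 in LMO2 cells. Of these markers 11 of 13 were called higher and none lower in pro-B(+) cells than in their pro-B(−) counterparts, beside 51.9% of named genes called. With the vector 5 of 11 tested rose and 3 fell, beside 68.3% of named genes called. Mpo, a granule peroxidase, rose 20.8-fold (limma adjusted p = 3.9e-07) and Cebpa, a myeloid transcription factor, 3.32-fold (adjusted p = 7.7e-06). The 3 that fell were Adgre1, 2.33-fold (adjusted p = 2.8e-05), Csf3r, 1.21-fold (adjusted p = 0.014), and Ctsg, at least 2.21-fold. S100a8 and S100a9 were well above background in pro-B(+) cells only, Lyz2 in pro-B(+) and LMO2 cells only, and Ctsg in all but LMO2 cells. In the counts above, S100a8, S100a9, Lyz2 and, with the vector, Ctsg passed the filter through the group in which they were high. The sum of 13 stromal markers was 39.7 to 39.8 in pro-B(+), 42.4 to 44.1 in pro-B(−), 69.0 to 70.3 in Mock and 56.4 to 57.6 in LMO2 cells. Without Thy1, which lymphoid cells also express, the order changed, to 22.3 to 23.1 in pro-B(+), 9.15 to 9.35 in pro-B(−), 24.2 to 25.2 in Mock and 31.9 to 32.8 in LMO2 cells. Stromal markers were called higher in 8 of 10 and lower in 1 between the parental lines, higher in 5 of 11 and lower in 3 with the vector, and higher in 10 of 11 from pro-B(−) to Mock cells, and Lum and Dcn were not above background in any group. Of named genes 51.9%, 68.3% and 59.7% were called in these comparisons. The 10 include Postn, which passed the filter through Mock cells, where it was high. For 11 pro-B markers the sums were 29.7 to 32.5 in the parental lines, 30.6 to 31.8 in Mock and 45.6 to 45.8 in LMO2 cells. Without Dntt, the terminal transferase, which rose 16.2-fold with the vector (adjusted p = 1.5e-06), LMO2 cells were lower than Mock cells, at 24.9 to 25.2 against 29.3 to 30.5. With the vector 3 of 10 pro-B markers rose and 5 fell, beside 68.3% of named genes called. Those that fell included the recombinase genes Rag1 (−2.78, adjusted p = 3.8e-05) and Rag2 (−2.11, adjusted p = 1.5e-06). In the parental comparison 2 of 11 pro-B markers were called higher and 6 were called lower, beside 51.9% of named genes called. Igll1, which encodes a surrogate light chain, was not above background in pro-B(+) cells, nor Cd79b in pro-B(−) cells, nor Cd79a in either transductant. Igll1 and Cd79b thus passed the parental filter through the line in which they were high. The part of such cells in the differences of Dnmt3a, Dnmt3b, Tet2 and Tdg was not tested. These sums without 1 gene were added after the values were seen.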

How the data were processed

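Total RNA of 8 samples was hybridised to one-colour Agilent arrays. Spot intensity, background-subtracted, comes from Agilent Feature Extraction 11.5.1.1 in the files the authors deposited, with flags for outliers and for signal well above background. A matrix of the authors on the log2 scale, from 75th percentile normalization, served as an alternative. Control and outlier spots were left out and spots of a probe averaged, which left 39378 of 39429 probes. Values were log2 processed intensity minus the 75th percentile of the array. RefSeq accessions named 67.4% of probes, and the brightest probe stood for a gene. limma 3.58.1 in R 4.3.3 fitted 4 group means (lmFit, eBayes) over probes well above background in both samples of 1 or more groups compared, with calls at a 2-sided Benjamini-Hochberg adjusted p under 0.05, checked on simulated arrays. The 7 contrasts were each adjusted over all probes tested. Within each list up to 3 called genes with the largest changes, above background on all arrays compared, were named, with the 3 genes most like each of the 2 widest-ranging members. Members and lists were chosen with earlier results of these data known. The number of arrays limits the precision.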

Additional observations from a re-analysis of the deposited data

How the results depend on the processing

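Of the 4 counts of probes called (11331, 14737, 13391 and 13266), the parental one moved with median scaling, to 18512. The number of the 9 genes called between the parental lines was 4, but 8 with median scaling, 2 with no filter on dim probes and 2 with only the arrays compared; the cause was not tested. Leaving out 1 array gave 2 to 4 there, 6 to 7 for the Lmo2 effect, 5 to 6 from pro-B(−) to Mock cells and 4 to 6 for the difference of effects, and 8521 to 10797, 12901 to 14534, 10729 to 12854 and 11730 to 12152 probes. Same-numbered arrays did not deviate together (correlations of −0.0272 to 0.0515), and the fit with the replicate number as a block, which called 10958, 14457, 12945 and 12925 probes, changed no call of the 9 genes. The deposited matrix changed none either. Normexp, here on median signals, was set after seeing the files.

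Some values changed sign. Between the parental lines Tet3 went from 0.06 to −0.22 with median scaling, −0.12 with quantile normalization, −0.09 with normexp and −0.17 by another probe, and from −0.04 to 0.17 without 1 array, and Tdg from −0.06 to 0.00. With the vector Mbd2 went from −0.08 to 0.02 with quantile normalization, Tet3 to −0.19 and Tdg to 0.08 by another probe, and Dnmt3l ranged from −0.41 to 0.22 without 1 array. From pro-B(−) to Mock cells Dnmt1 became −0.05 with normexp, Dnmt3l 0.05 with quantile normalization and −0.51 to 0.12 without 1 array, and other probes gave 0.07 for Tet3 and 0.23 and 0.12 for Tdg. In the difference of effects Uhrf1 became −0.02 with quantile normalization and −0.07 with normexp, and other probes gave 0.38 for Tet3, −0.31 for Tdg and 0.13 for Mbd2, which ranged from −0.13 to 0.06 without 1 array. The cause was not tested. The call of Tet3 in that difference was lost without pro-B(+) replicate 1 or 2, Mock replicate 1 or LMO2 replicate 2, and with no filter on dim probes (adjusted p = 0.053). Dim probes such as that of Dnmt3l limit what can be resolved.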

Other observations

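Neil3 and Neil1, glycosylases for oxidised bases, were chosen after their values were seen, as the base excision repair genes with the widest range. Neil3 read −1.14 and −0.97 in pro-B(+), −1.92 and −1.76 in pro-B(−) and −4.76 and −4.72 in Mock cells and was not above background in LMO2 cells, so that it was at least 2.43-fold lower there than in Mock cells. Neil1 was above background in both parental lines, with means of −3.44 and −3.32, and in neither transductant. Its level in pro-B(−) cells exceeded that of Mock cells at least 6.85-fold, a comparison in which group and slide cannot be told apart. Both passed the filter through the group in which they were high, so that no test is given.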
